A study of Mus musculus with 2 samples.

Results

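The 9 genes described here are S100a8 and S100a9, which encode the 2 subunits of calprotectin, and 7 genes for proteins of the neutrophil's granules and secretions: Camp, Ngp, Ltf, Lcn2, Retnlg, Wfdc21 and Pglyrp1. They were taken by symbol from the 27998 genes of the deposited table. Their RNA was followed through granulocyte progenitors to neutrophils, and then into all other cells, in 2 single-cell libraries. Both libraries held YFP+ CD11b- cells sorted from the hindlimb muscle of Fsp1-Cre:R26R-EYFP mice, in which Cre under the promoter of Fsp1 (S100a4) sets a lasting YFP label. The mice had either no surgery (day 0) or hindlimb ischemia surgery 28 days earlier (day 28). Each condition is 1 library and the number of animals in it is not given in the sources used here, so no test between conditions is possible. All intervals cover counting error only.

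Neutrophil granules are filled in sequence while the cell matures. Azurophil granules, with Elane, Mpo and Prtn3, are made by early progenitors, and secondary granules, with Ltf, Camp and Lcn2, by later ones. S100a8 and S100a9 are not granule proteins but cytosolic calcium-binding proteins that are very abundant in neutrophils, and act as alarmins once released.

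S100a8 (chr3:90668978-90670035, plus strand) and S100a9 (chr3:90692632-90695721, minus strand) lie 22.6 kb apart on mouse chromosome 3 (GENCODE M21, GRCm38/mm10). S100a4, whose promoter drives the Cre, is on the same chromosome, 62.9 kb from S100a8. Camp (chr9:109847379-109849617, minus strand), Ngp (chr9:110419747-110423012, plus strand) and Ltf (chr9:111019271-111042767, plus strand) share chromosome 9. Camp and Ngp are 570.1 kb apart and Ngp and Ltf 596.3 kb. Lcn2 is at chr2:32384633-32388252 (minus strand), Retnlg at chr16:48872621-48874496, Wfdc21 at chr11:83746940-83752642 and Pglyrp1 at chr7:18871331-18890459 (all plus strand). All 9 are annotated as protein-coding.

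The promoters below are shown because the members did not appear together in maturing cells. RefSeq promoter sequences (GRCm38.p6) were matched for 8 of the 9 members, all but Wfdc21, and the 250 bases before each start were searched on both strands. Capitals mark 2 motifs of transcription factors active in granulocytes: the C/EBP motif TTGCNNAA and the PU.1 motif GAGGAA (printed as its reverse complement where it lies on the other strand). Bases that GENCODE annotates as exon are not printed. The printed stretches are chr3:90668821-90668977 for S100a8, chr7:18884440-18884679 for Pglyrp1, chr3:90695722-90695971 (minus strand) for S100a9, chr9:110419558-110419746 for Ngp and chr16:48872358-48872607 for Retnlg.
S100a8: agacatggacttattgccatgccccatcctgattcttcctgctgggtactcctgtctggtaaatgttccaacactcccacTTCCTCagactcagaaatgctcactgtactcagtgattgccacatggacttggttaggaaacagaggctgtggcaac
Pglyrp1: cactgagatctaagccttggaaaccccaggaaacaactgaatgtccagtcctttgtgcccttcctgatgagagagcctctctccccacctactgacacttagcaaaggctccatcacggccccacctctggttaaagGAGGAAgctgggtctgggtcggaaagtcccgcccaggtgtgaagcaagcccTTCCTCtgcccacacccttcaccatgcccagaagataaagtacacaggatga
S100a9: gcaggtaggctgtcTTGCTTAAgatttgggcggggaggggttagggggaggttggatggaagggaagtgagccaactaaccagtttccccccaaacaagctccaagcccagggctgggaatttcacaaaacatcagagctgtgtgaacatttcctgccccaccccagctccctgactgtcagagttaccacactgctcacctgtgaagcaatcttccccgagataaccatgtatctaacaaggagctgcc
Ngp: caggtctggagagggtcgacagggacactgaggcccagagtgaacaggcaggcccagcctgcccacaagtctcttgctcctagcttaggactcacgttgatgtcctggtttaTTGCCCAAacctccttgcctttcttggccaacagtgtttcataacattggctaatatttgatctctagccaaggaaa
Retnlg: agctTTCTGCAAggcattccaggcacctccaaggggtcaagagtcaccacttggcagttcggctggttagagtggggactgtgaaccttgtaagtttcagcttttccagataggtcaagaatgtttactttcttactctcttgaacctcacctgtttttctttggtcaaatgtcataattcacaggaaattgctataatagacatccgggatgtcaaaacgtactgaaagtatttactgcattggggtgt
S100a8 held 2 PU.1 motifs in its 250 bases, which end 165 and 31 bases before the start (the second is in the unprinted part), and no C/EBP motif. Pglyrp1 also held 2 PU.1 motifs and no C/EBP motif. A C/EBP motif was found for S100a9, Ngp (2 of them), Ltf, Lcn2 and Retnlg. That is 5 of 8 members, against 9.56% of 32851 promoters of the same length. The PU.1 motif was found for 4 of 8 (S100a8, Ltf, Lcn2 and Pglyrp1), against 23.3% of all promoters. The GATA motif AGATAA was found for 3 of 8 (S100a9, Ltf and Pglyrp1), against 9.99%. Camp held none of the 3. Annotated exon made up 197 of the 250 bases searched for Lcn2 and 161 of the 250 for Camp. The second C/EBP match of Ngp also lay in exon bases. A match describes these letters only, and no factor's binding was measured here.

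The libraries held 2668 barcodes and 19574562 UMIs (unique molecular identifiers, 1 per captured RNA molecule) at day 0, and 2653 barcodes and 38785525 UMIs at day 28. Filters kept 2609 cells at a median of 4789 UMIs and 2580 cells at a median of 12214 UMIs, and 13 barcodes were shared by kept cells of both libraries. Because of this depth gap, shares of cells with a UMI are also given after thinning, in which each cell is reduced at random to 3200 UMIs (225 shallower day 0 cells left out). Levels are in CPM, the UMIs of a gene summed over a group of cells per 1000000 UMIs of that group, and are not scaled by gene length, since a molecule is counted once whatever its length. The 9 members were left out of the variable genes used to cluster the cells. Their UMIs still counted in the cell totals used for scaling and in the doublet scores.

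Of the 22 clusters, 3 were given granulocyte names by the marker lists and are called granulocyte-type below. They made up 153 cells at day 0 and 655 at day 28. The first, the Elane-high cluster (64 and 290 cells), was led by azurophil granule genes, with Elane at 13774 CPM at day 0 and 9597 at day 28. The second (74 and 360 cells) was named granulocyte progenitor-like, but the monocyte genes F13a1, Ms4a6c and Ly6c2 were among its leading genes. It had Elane at 4638 and 2775 CPM. Cebpe was at 9.89 and 16.7 CPM there, against 197 in the Elane-high cluster of both libraries. Klf4 was at 93.1 and 96.7 CPM against 2.11 and 6.55, so the granulocyte name of this cluster is uncertain. The third is mature neutrophil-like, with 15 cells at day 0 and 5 at day 28, and was led by Chil3, Cd177, Mmp8 and Ly6g. Its Elane level was 12.5 CPM at day 0 (1 UMI) and 241 at day 28 (12 UMIs). These 20 cells came through a sort against CD11b. Itgam, the gene for CD11b, gave 16 UMIs in 10 of the 15 day 0 cells and 9 UMIs in 3 of the 5 day 28 cells. Of 14 genes on the mature neutrophil list, 2 were at 0 UMIs in the day 0 cells (Gm5483 and BC100530) and 7 in the day 28 cells (those and Csf3r, Il1b, Fpr1, Clec4d and Asprv1).

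The 20 neutrophil-like cells were filled with member RNA. The 9 genes gave 46.5% of their UMIs at day 0 and 42.7% at day 28, and S100a8 and S100a9 alone gave 31.8% and 31.1%. In single cells the share ran from 26.1% over a median of 52.8% to 60.9% at day 0, and from 28.6% over 51.0% to 53.9% at day 28. The day 28 range lay within the day 0 range. The cell at 28.6% also held 968 UMIs of Jchain, a plasma cell gene, and the other 4 day 28 cells held 0 or 1.

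S100a8 stood at 182383 CPM at day 0 (95% interval 179430 to 185373) and 174966 at day 28 in these cells. S100a9 stood at 135397 and 136416 CPM. Camp, a precursor of the antimicrobial peptide cathelicidin, was next with 54365 and 51961 CPM. Ngp, a cystatin-like granule protein, followed with 47789 and 36986 CPM. Lcn2, which binds bacterial siderophores, gave 14633 and 13251 CPM. Ltf, the iron-binding lactoferrin, gave 8069 and 3949 CPM, Wfdc21, a WAP-domain protein, 6727 and 5272, and Pglyrp1, which recognises bacterial peptidoglycan, 4116 and 2466. Retnlg, a resistin-like secreted protein, was 11797 CPM at day 0 and 1303 at day 28. The first 5 genes kept the same order of levels in both libraries, while Retnlg was above Ltf at day 0 and the lowest of the 9 at day 28. Since a member's rise lowers the CPM of every other gene in such a cell, these values are shares of the captured RNA, not amounts per cell.

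**Figure D1:**
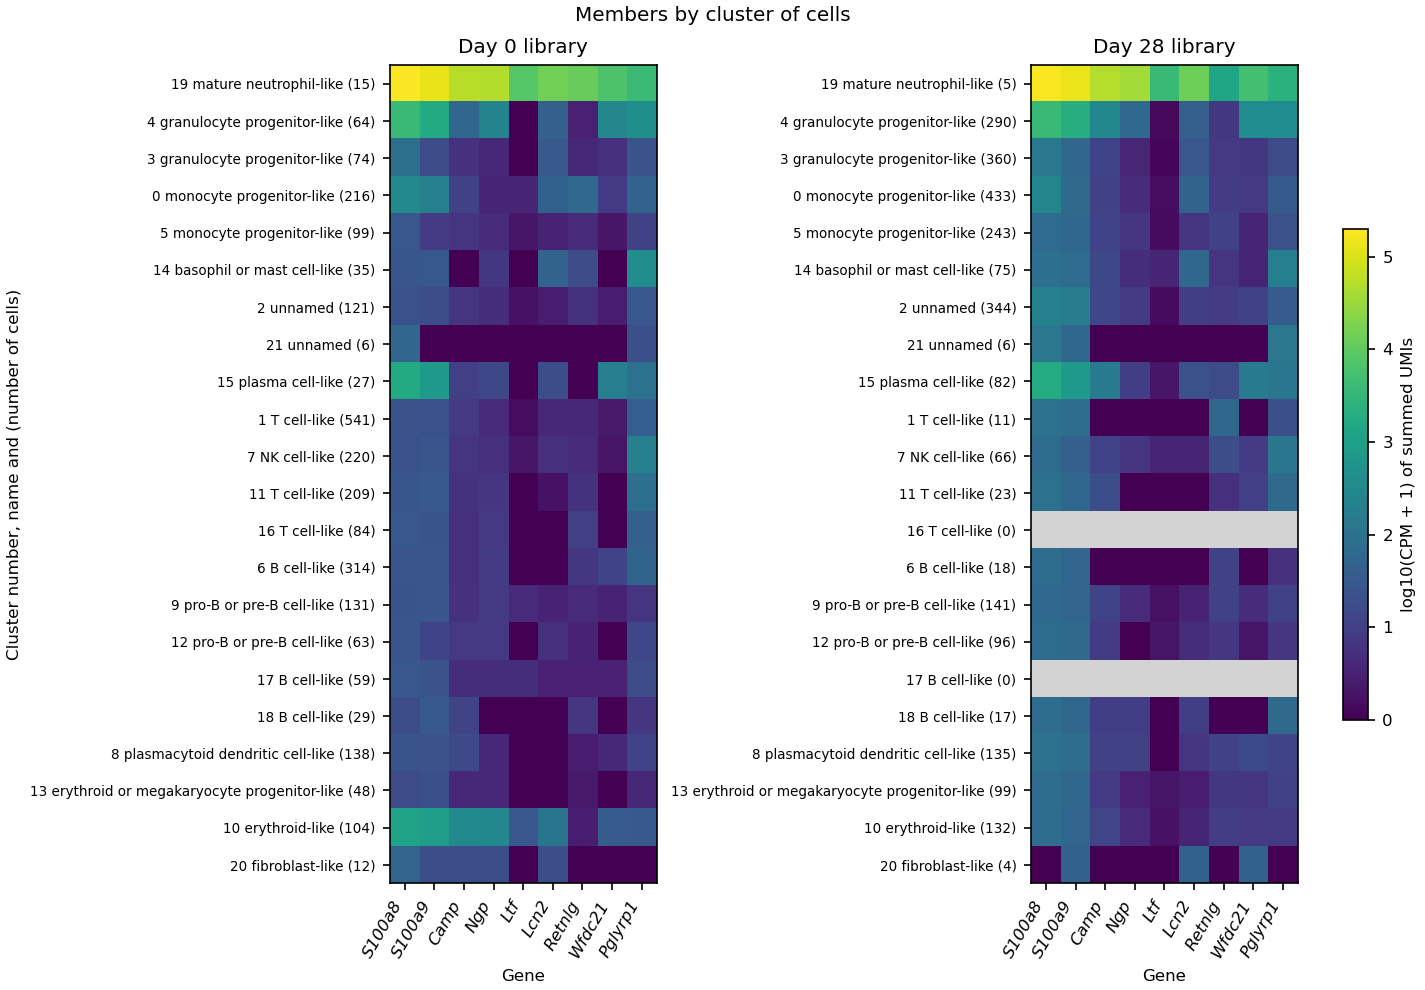
Level of each member, as log10(CPM + 1) of summed UMIs, in each cluster (rows, with cell numbers) at day 0 (left) and day 28 (right). Grey rows have no cells. All 9 members peak in the neutrophil-like row, and S100a8, S100a9, Wfdc21 and Pglyrp1 are also high in the Elane-high row (cluster 4). The bright erythroid-like row at day 0 rests on 1 cell.

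The Elane-high progenitors already carried some members but not others. S100a8 was at 3646 CPM there at day 0 (interval 3548 to 3747) and 3923 at day 28 (3875 to 3971). After thinning, 53.1% and 74.5% of these cells had an S100a8 UMI. Pglyrp1 was at 429 and 376 CPM, in 59.4% and 62.8% of thinned cells, and Wfdc21 at 287 and 384 CPM, in 29.7% and 55.2%. S100a9 was at 1709 and 1994 CPM but was found in fewer cells than S100a8, 28.1% and 50.7%. At day 0 its top 3 cells held 71.6% of its UMIs, and without the top cell it was at 1130 CPM. These 4 genes were in at least 28.1% of the thinned cells of each library. The S100a8 level at day 0 was 1859 CPM when the libraries were clustered separately. It was 8579 CPM among cells with at least 1000 detected genes, where 10 neutrophil-like cells joined the granulocyte progenitor-like ones.

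The remaining 5 members were in few Elane-high cells. Camp was in 4.69% of thinned cells at day 0 and 12.4% at day 28, Lcn2 in 10.9% and 10.7%, and Ngp in 6.25% and 3.45%. Retnlg was in 0% (interval up to 5.60%) and 3.10%. Ltf gave 0 UMIs in the 64 day 0 cells, where the floor of 3 UMIs is 2.11 CPM, and 2 UMIs in the 290 day 28 cells. No thinned cell of the cluster had an Ltf UMI in either library, with upper limits of 5.60% and 1.26%. At day 0 the neutrophil-like levels of Retnlg and Ltf were above those of Wfdc21 and Pglyrp1.

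Each Elane-high level was also set against the neutrophil-like level of the same gene. Pglyrp1 stood at 10.4% of its neutrophil-like CPM at day 0 (interval 9.09 to 11.9) and 15.2% at day 28 (12.7 to 18.4). Wfdc21 stood at 4.26% and 7.29%, S100a8 1.999% and 2.24%, and S100a9 1.26% and 1.46%. Lcn2 stood at 0.283% and 0.296%. Camp stood at 0.101% and 0.561%, and Ngp 0.484% and 0.176%. Retnlg stood at 0.0179% and 0.480%, and Ltf 0% and 0.00772%. At day 28 the Elane-high Retnlg level, 6.25 CPM, was below the 8.43 CPM of the lymphoid-, plasmacytoid- and erythroid-like cells described below. Of the 65 Retnlg UMIs in neutrophil-like cells at day 28, 50 came from 1 cell. The first 4 places, Pglyrp1, Wfdc21, S100a8 and S100a9, were the same in both libraries and their intervals did not overlap within a library. The places of Camp, Ngp, Lcn2 and Retnlg differed between the libraries.

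Pairs of members in single thinned Elane-high cells (354 cells, both libraries together) showed the same one-sidedness. S100a8 without S100a9 was found in 101 cells and S100a9 without S100a8 in 16. S100a8 without Camp was found in 214 and Camp without S100a8 in 3, and for Ngp the numbers were 238 and 2. S100a9 without Camp was found in 134 cells and Camp without S100a9 in 8. For Pglyrp1 and Camp they were 187 and 6, and for Wfdc21 and Camp 146 and 6. Camp and Ngp did not order each other so plainly, with 32 cells of Camp alone, 7 of Ngp alone and 7 of both. S100a8 and Pglyrp1 were likewise found singly in both directions, in 71 and 41 cells. A more abundant RNA is seen alone more often at a fixed depth, so these counts describe detection.

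Along a score of late over early granulocyte genes, from which all members were left out, the 808 granulocyte-type cells were ranked and divided into 4 ranges of 202. S100a8 was at 685 CPM in the lowest range and at 1608, 2415 and 9822 in the next 3. S100a9 started lower, at 131 CPM, and reached 411, 1287 and 7354. Camp was at 10.7, 31.9, 137 and 2377 CPM. Ngp stayed at 3.63, 6.42 and 9.17 CPM over the first 3 ranges and was 1839 in the fourth. Ltf gave 0 UMIs in the first and second ranges, 0.688 CPM in the third and 244 in the fourth. Lcn2 went from 24.4 CPM in the first and second to 34.8 and 580, and Retnlg from 4.84 over 5.78 and 6.42 to 297. Pglyrp1 (206, 221, 188 and 236 CPM) and Wfdc21 (116, 198, 216 and 388) differed least between the ranges. The fourth range held all 20 neutrophil-like cells, 25 Elane-high cells and 157 cells of the F13a1-positive cluster, so its level mixes rich and poor cells. The low values can be set beside the lymphoid-, plasmacytoid- and erythroid-like cells described below. Camp was at 6.04 CPM (day 0) and 9.27 (day 28) there, Ngp at 4.62 and 3.21, and Retnlg at 3.58 and 8.43.

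**Figure D2:**
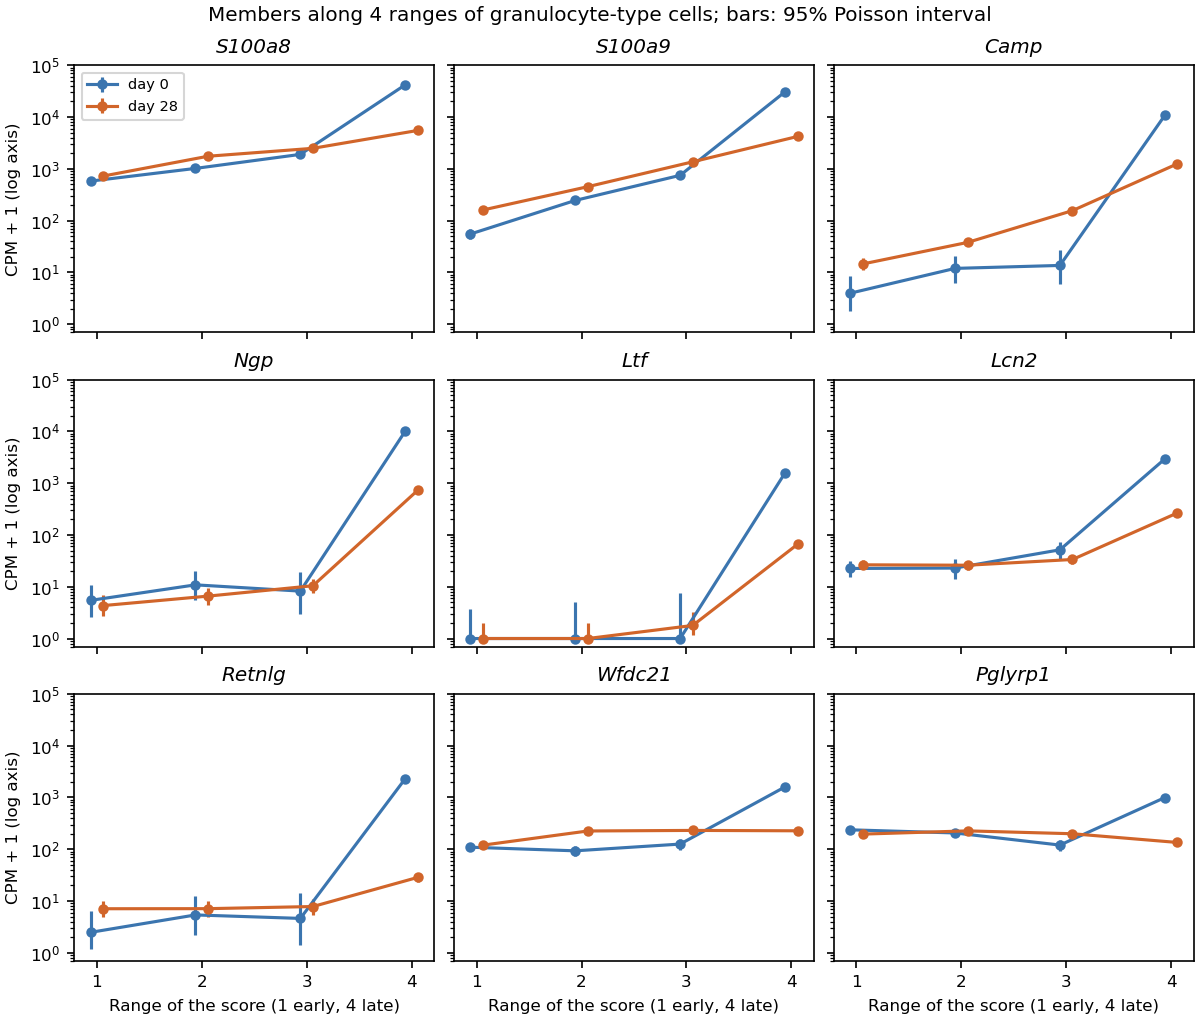
CPM + 1 of each member on a log axis over the 4 ranges of the score, from early (1) to late (4), in granulocyte-type cells of day 0 (blue) and day 28 (orange), with 95% Poisson intervals. S100a8, S100a9, Wfdc21 and Pglyrp1 are above 50 CPM in every range, while Ngp, Ltf and Retnlg stay below 15 CPM until the fourth. The fourth range holds 15 neutrophil-like cells of 33 at day 0 and 5 of 169 at day 28.

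S100a8 and S100a9, the partners in calprotectin, were not found in a fixed RNA ratio. Per S100a8 UMI there were 0.191 S100a9 UMIs in the lowest range (interval 0.175 to 0.208), then 0.256, 0.533 and 0.749 (0.737 to 0.761). At day 0 the 4 values were 0.0936, 0.240, 0.394 and 0.732, and at day 28 they were 0.220, 0.258, 0.549 and 0.765. In each library the value of every range was above that of the range before it. Within the Elane-high cluster alone, divided the same way after the data had been seen, it was 0.127, 0.196, 0.349 and 0.670. The neutrophil-like cells had 0.742 at day 0 and 0.780 at day 28. Ranked by the first principal component instead of the score, the ratio was 0.277 in the first range, 0.178 in the second, and then 0.290 and 0.731, so the low end of the order depends on the ranking.

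**Figure D3:**
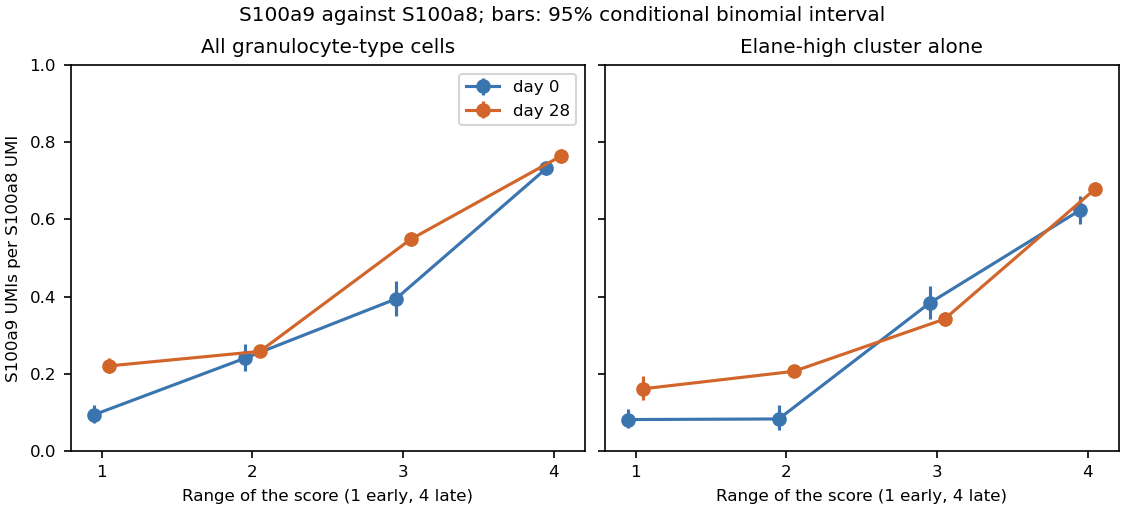
S100a9 UMIs per S100a8 UMI over the 4 score ranges (1 early, 4 late) at day 0 (blue) and day 28 (orange), in all granulocyte-type cells (left) and in the Elane-high cluster alone (right), with 95% conditional binomial intervals. From the first range to the fourth the ratio goes from 0.0936 to 0.732 at day 0 and from 0.220 to 0.765 at day 28 in the left panel.

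S100a8 reached 20 UMIs in 24 of 64 Elane-high cells at day 0 and in 159 of 290 at day 28. Cells with many Camp or Ngp UMIs were few. In the Elane-high cluster, 1 day 0 cell held 258 of 329 Ngp UMIs (78.4%) and 50 of 78 Camp UMIs (64.1%). It also had 1294 S100a8 and 844 S100a9 UMIs and members made up 14.0% of its RNA. At day 28, 1 cell held 284 of 426 Ngp UMIs (66.7%) and 454 of 1912 Camp UMIs (23.7%), with 2462 S100a8 and 2227 S100a9 UMIs, a member share of 20.3%. Both still had Elane (112 and 384 UMIs), Fcnb (24 and 28) and Cebpe (11 and 14), and neither had an Ltf or Retnlg UMI. Camp reached 20 UMIs in 15 day 28 cells and in 1 day 0 cell, whereas Ngp did so in 2 cells of each library. Cells with much Camp and little Ngp were seen at day 28, such as 1 with 255 Camp and 13 Ngp UMIs. At day 0, 1 cell had 56 Ngp and 5 Camp UMIs.

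The neutrophil-like cells themselves split on Retnlg. By UMIs of non-member genes, 11 cells had more Chil3, Fcnb and Cebpe and 9 had more Mmp8, Mmp9 and Cxcr2, a division made after seeing the data. Retnlg was at 454 CPM in the first set and 29343 in the second. Its single-cell counts were 0 to 14 in the first (median 1) and 15 to 177 in the second (median 108), without overlap. Camp was lower in the second set, at 26625 against 62510 CPM. Ngp was lower there with the libraries pooled, at 28885 against 48618, and at day 0, at 27267 against 59259. At day 28 Ngp was not lower, at 39933 (34106 to 46470) against 36716 (34980 to 38516). Ltf differed by library: at day 0 it was at 8882 CPM (8084 to 9738) in the first set and 6616 (5706 to 7629) in the second, and at day 28 at 3807 and 5500. S100a8 was higher in the second set, at 216421 against 167047 CPM. The first set held 7 day 0 and 4 day 28 cells and the second 8 and 1, and the median depth was 5190 against 3429 UMIs. The part of library and depth in the split was not tested. At day 28, 50 of the cluster's 65 Retnlg UMIs came from the 1 cell on the Mmp8 side. By summed UMIs Retnlg was lower at day 28 on each side too, at 31888 CPM at day 0 and 11956 at day 28 on the Mmp8 side. On the other side it was at 567 CPM (380 to 815) and 328 (184 to 541), with overlapping intervals. The 1 day 28 cell on the Mmp8 side had 1.1956% of its UMIs from Retnlg, inside the day 0 single-cell range of 0.365% to 5.55%. On the other side the single-cell median was higher at day 28, at 0.0597% against 0.0193% at day 0.

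**Figure D4:**
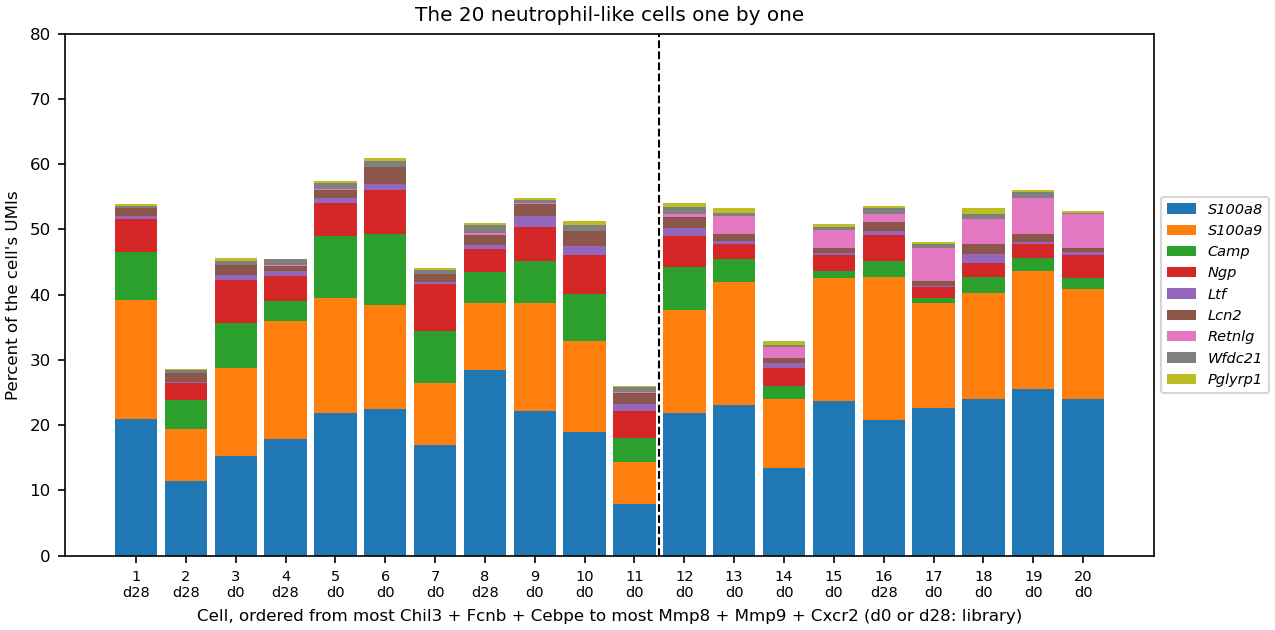
Percent of each cell's UMIs given by each member (stacked bars from 0) in the 20 neutrophil-like cells, ordered from most Chil3, Fcnb and Cebpe (left) to most Mmp8, Mmp9 and Cxcr2 (right), with the library (d0, d28) below. The dashed line parts the 11 cells from the 9. Retnlg (pink) is nearly absent on the left and Camp (green) is thicker there.

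Genes of the fixed lists were compared between neutrophil-like and Elane-high cells, with 10 CPM added to each level. Of all genes averaging at least 10 CPM, 0.87% at day 0 and 0.678% at day 28 were at least 10-fold higher in neutrophil-like cells, and 2.11% and 1.51% in Elane-high cells. Of the other secondary and gelatinase granule genes, 8 of 13 (day 0) and 7 of 12 (day 28) were 10-fold higher in neutrophil-like cells, and none the other way. Chil3, a chitinase-like protein, was at 11.9 and 18.6 CPM in Elane-high and 1857 and 5052 in neutrophil-like cells, and Anxa1, which limits inflammation, at 242 and 224 against 3150 and 2406. Of the azurophil granule genes, 6 of 9 at day 0 and 4 of 8 at day 28 were at least 10-fold higher in Elane-high cells, among them Elane. Lyz2, the lysozyme gene, went the other way, at 228 and 168 CPM against 12487 and 8720. Of the mature neutrophil genes, 2 of 11 at day 0 and 2 of 9 at day 28 were 10-fold higher in the neutrophil-like cells. They were led by Ly6g (0 UMIs in Elane-high cells, 904 and 441 CPM in neutrophil-like cells) and Fpr2, a formyl peptide receptor (0 UMIs, and 339 and 221 CPM). Chil3, Mmp8, Mmp9, Itgb2l, Cd177 and Ly6g were among the markers that named the neutrophil-like cluster. Elane, Mpo, Prtn3 and Ctsg were among those that named the Elane-high cluster. The direction of these genes was therefore largely fixed beforehand. Genes near 0 in Elane-high cells, such as Mmp8, Mmp9 and Orm1, passed the filter only through the neutrophil-like cells.

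Among 9 measured granulocyte regulators, Cebpe, the factor needed for secondary granules, was at 197 CPM in Elane-high cells of both libraries and at 590 and 621 in neutrophil-like cells. Irf8, a monocyte-lineage factor, was at 599 and 426 CPM in the F13a1-positive cluster and at 96.3 and 32.3 in the Elane-high cluster. Of the list of receptors and partners of the member proteins, Emb was at 214 and 137 CPM in Elane-high and 50.2 and 20.05 in neutrophil-like cells (4 and 1 UMIs), and Cmtm7 at 1528 and 1367 against 138 and 481. Of 7 other S100 genes, S100a6 was at 21.1 and 27.6 CPM in Elane-high and 3690 and 1363 in neutrophil-like cells, and S100a11 at 1184 and 775 against 4279 and 2586.

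The genes whose pattern was most like the mean of the 9 members, over 38 cluster-by-library sums and 6364 genes, were Lrg1 (Pearson r = 0.945), 4930438A08Rik (0.945), Mrgpra2b (0.936), Ccno (0.927) and Mrgpra2a (0.922), then Orm1, Mapk13, Itgb2l, 9830107B12Rik and C5ar1 (0.893 to 0.880, in that order). Clusters of a library share its free RNA, so these are descriptions. Among the members, S100a8 and S100a9 were most alike (0.979) and Ltf and Pglyrp1 least (0.575).

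Most member RNA of a library lay in the granulocyte-type cells, which were 5.86% of day 0 and 25.4% of day 28 cells. They held 86.9% and 87.6% of all member UMIs. The holders within them differed. The neutrophil-like cells held 69.3% at day 0 and 26.7% at day 28, and the Elane-high cells 17.0% and 58.4%. The F13a1-positive cluster, 2.84% of day 0 and 14.0% of day 28 cells, held 0.552% and 2.44%. The richest 9 cells at day 0 and the richest 16 at day 28 together held more than all other cells of the library. Ltf was held to 93.3% and 90.8% by the neutrophil-like cells. Pglyrp1 was the most spread of the 9 at day 0, with 45.7% of its UMIs outside granulocyte-type cells. At day 28 Retnlg was, with 54.9%.

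Some members were higher in particular clusters outside the granulocyte-type cells. Pglyrp1 was at 198 CPM in the NK cell-like cluster at day 0 (interval 170 to 228) and 120 at day 28 (87.5 to 159), in 42.9% and 24.2% of thinned cells. In basophil or mast cell-like cells it was at 390 and 192 CPM. Its median over 12 lymphoid-, plasmacytoid- and erythroid-like clusters was 14.6 CPM at day 0, and 9.89 over 9 clusters at day 28. Lcn2 was at 44.3 and 48.4 CPM in monocyte progenitor-like cluster 0 and at 46.8 and 59.4 in the basophil or mast cell-like cells, against medians of 0.412 and 2.48 in those same clusters. In cluster 0 S100a8 was at 276 and S100a9 at 68.3 CPM at day 28, but 17 of its 433 cells held 57.8% of the S100a8. Without cells of 20 or more member UMIs, S100a8 and S100a9 were at 78.7 and 17.1 CPM there at day 0 and 122 and 55.0 at day 28.

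A few single cells carried many member UMIs under another cluster's name. The largest was an erythroid-like day 0 cell with 3234 member UMIs, among them 1267 S100a8, 376 Camp, 351 Ngp and no Elane. It held 97.5% of the S100a8 of its 104-cell cluster. In monocyte progenitor-like cluster 0, 1 day 0 cell held 140 of the cluster's 149 Retnlg UMIs. The plasma cell-like cluster had 27 cells at day 0, 1 of them with at least 20 member UMIs, and 82 at day 28, 9 of them with that many, and these held 94.8% and 91.7% of the cluster's member UMIs. Those 10 cells also held 147 to 634 Elane and 632 to 2317 Jchain UMIs, at depths of 23204 to 60557 UMIs against cluster medians of 7723 and 7115. Whether they are doublets was not tested.

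Below these carriers most members were found at low levels in many cells. This was measured in lymphoid-, plasmacytoid- and erythroid-like cells, which are not known to make neutrophil granules, after leaving out cells with 20 or more member UMIs (1939 and 737 cells left). S100a8 was at 23.3 CPM at day 0 and 76.1 at day 28, 3.27 times as high (interval 2.82 to 3.80). S100a9 was at 22.0 and 58.6 CPM (2.66, 2.28 to 3.13), Retnlg at 3.58 and 8.43 (2.35, 1.57 to 3.59), Wfdc21 at 2.74 and 5.23 (1.91) and Camp at 6.04 and 9.27 (1.53, 1.09 to 2.17). Ngp was at 4.62 and 3.21 CPM (0.694, 0.417 to 1.13), Ltf and Lcn2 were under 3 CPM in both libraries, and Pglyrp1 went from 46.6 to 14.97 CPM. The day 28 cells included far fewer NK and T cell-like cells (100 against 1054), the lineage with the most Pglyrp1 of these. The part of this in the Pglyrp1 levels was not tested. Pglyrp1 was at 82.8 and 94.1 CPM in T or NK cell-like cells and at 26.6 and 10.4 in the B lineage. In plasmacytoid dendritic cell-like cells it was at 10.8 CPM in both libraries. The level of S100a8 over the whole library was not higher, with 1189 CPM at day 0 and 1093 at day 28.

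The spread of S100a8 differed little between clusters. Over 12 clusters it ran from 15.9 to 27.5 CPM at day 0 and over 9 from 63.2 to 95.8 at day 28, without overlap between libraries. After thinning, 6.84% of these cells at day 0 (interval 5.69 to 8.14) and 23.6% at day 28 (20.6 to 26.8) had an S100a8 UMI, against 11.5% and 52.3% unthinned at median depths of 4156 and 7997 UMIs. For S100a9 the thinned shares were 7.54% and 16.8%, and for Camp 2.32% and 3.12%. At least 2 S100a8 UMIs were left in 0.406% and 2.17%. The level of Pglyrp1, by contrast, ran from 2.88 to 198 CPM over the 12 clusters at day 0 and from 4.13 to 120 over the 9 at day 28, highest in the NK cell-like cluster both times. Elane, which is not a member, was at 27.9 CPM at day 0 and 137 at day 28 in these lineages. Whether the member UMIs came from the cells themselves or from free RNA was not tested.

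**Figure D5:**
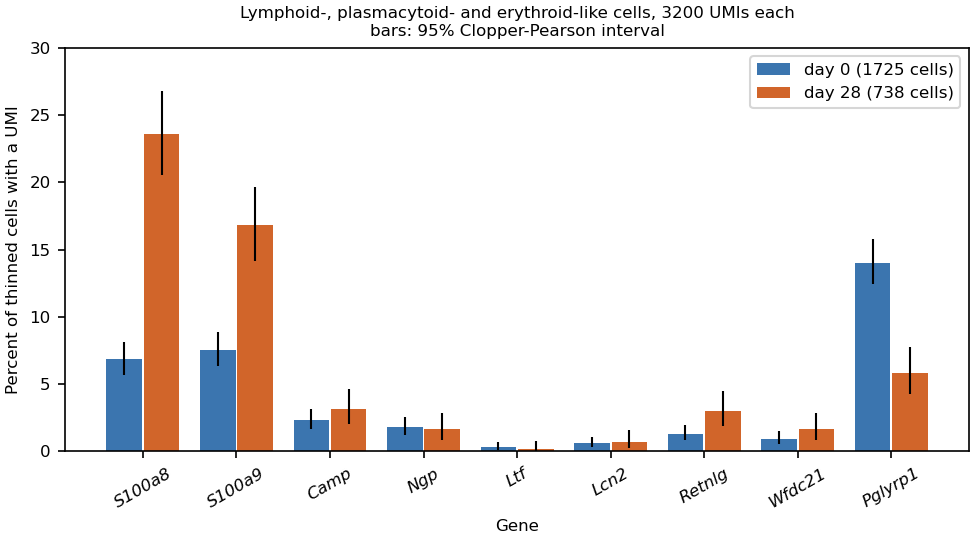
Percent of lymphoid-, plasmacytoid- and erythroid-like cells, each thinned to 3200 UMIs, with a UMI of each member at day 0 (blue, 1725 cells) and day 28 (orange, 738 cells), with 95% Clopper-Pearson intervals. S100a8 and S100a9 are higher at day 28, Pglyrp1 is lower, and the intervals of the other 6 members overlap.

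The make-up of these low levels can be set beside the cells that hold the members. The ratio of S100a9 to S100a8 was 0.943 at day 0 (interval 0.785 to 1.13) and 0.769 at day 28 (0.683 to 0.866). The neutrophil-like cells had 0.742 and 0.780, and the Elane-high cells 0.469 and 0.508. The day 0 interval held neither value, and the day 28 interval held the neutrophil-like one. Camp to S100a8 was 0.259 (0.194 to 0.342) and 0.122 (0.0949 to 0.154) in the lymphoid, plasmacytoid and erythroid cells, 0.298 and 0.297 in neutrophil-like cells, and 0.0150 and 0.0743 in Elane-high cells. At day 28 Ngp to S100a8 was 0.0421 (0.0275 to 0.0619) and Lcn2 to S100a8 0.0343 (0.0214 to 0.0524), against 0.211 and 0.0757 in neutrophil-like and 0.0166 and 0.00999 in Elane-high cells, so neither interval held either value. The granulocyte-type clusters summed had Camp to S100a8 at 0.222 and 0.129, inside both intervals. Their day 28 Lcn2 to S100a8, 0.0315, was also inside, while Ngp to S100a8, 0.0646, was above. Their S100a9 to S100a8, 0.666 and 0.573, was below both intervals. Retnlg to S100a8 was 0.154 (0.106 to 0.217) and 0.111 (0.0854 to 0.142), above the 3 granulocyte-type clusters summed, which had 0.0477 and 0.00437. The Retnlg level of these cells was 5.92% of the whole-library level at day 0 and 91.2% at day 28. On the Mmp8 side of the neutrophil-like cells the Retnlg and S100a8 sums were 911 and 6216 UMIs at day 0. At day 28 that side was 1 cell, with 50 and 872 UMIs. The source of these UMIs was not tested.

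Within lineages of at least 50 cells in each library, members were called where the CPM at day 28 was 2-fold above or below that at day 0, among genes averaging at least 10 CPM. In Elane-high cells 7 members were counted. Camp was higher (54.8 against 291 CPM, ratio 5.32, interval 4.24 to 6.76) and Ngp lower (231 against 64.9 CPM, ratio 0.281, 0.243 to 0.325). Of all genes there, 0.657% were called higher and 2.42% lower. S100a8 (ratio 1.08), S100a9 (1.17), Wfdc21 (1.34), Pglyrp1 (0.877) and Lcn2 (0.945) were not called. Without the top cell of each library the Camp ratio was 11.2 and the Ngp ratio 0.430, and with no doublets removed the Ngp ratio was 1.19.

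In the F13a1-positive cluster, 1 of 4 members counted was higher, S100a9 (15.7 against 56.0 CPM, ratio 3.56), beside 0.706% of all genes, and none lower, beside 2.17%. The S100a9 level of lymphoid, plasmacytoid and erythroid cells, 22.0 and 58.6 CPM, moved with it, and its part in this ratio was not tested. In T or NK cell-like cells S100a8 and S100a9 were higher and none was lower (5.86% and 7.6% of all genes). Retnlg (4.06 against 16.7 CPM) passed the filter only through day 28, and with at least 10 CPM asked of each library, added after seeing the data, 2 of 3 members were higher, beside 3.87%. Most of these cells were in T cell-like cluster 1 at day 0 and in the NK cell-like cluster at day 28. In the B lineage, 2 of 3 were higher (S100a8 and S100a9, beside 2.49%) and Pglyrp1 was lower (26.6 against 10.4 CPM, beside 8.11%). In plasmacytoid dendritic cell-like cells S100a8 and S100a9 were higher, 2 of 4 counted, beside 3.74%, and none was lower, beside 7.9%. In unnamed cluster 2, 2 of 3 were higher (0.829% of all genes) and none lower (4.97%), S100a8 with a ratio of 10.5, which was 4.04 without the top cells.

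Lower calls elsewhere rested on single cells. In erythroid-like cells S100a8, S100a9 and Camp were lower at day 28, and no member was higher (2.36% and 4.1% of all genes). The other 5 counted passed the filter only through day 0. Without the top cell of each library, S100a8 there was higher, with a ratio of 2.70. In monocyte- or dendritic-like cells S100a9 was lower and no member higher (1.6% and 0.459% of all genes), and Retnlg (46.6 against 7.91 CPM) passed only through day 0. Their ratios of 0.449 and 0.170 became 2.57 and 2.07 without the top cells.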

How the data were processed

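Cell Ranger 2.1.1, STAR and the mm10 build are named in the submitters' processing notes. Each library was deposited as a matrix of UMI counts, whole numbers with no normalisation. The members and gene lists were chosen with earlier results of these data known.

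Barcodes under 500 genes or over 10% mitochondrial UMIs were dropped. Scrublet's automatic threshold marked under 0.5% of barcodes, so the top-scoring 57 and 56 cells were left out instead, at 0.8% per 1000 barcodes. Clustering used scanpy 1.11.5 and leidenalg 0.10.2 (2000 variable genes without the members, 30 components, 20 neighbours, resolution 0.8). Clusters were named from fixed marker lists joined into families: at least 3 markers in 10% of cells, and a mean log2 score of at least 2, or 1.5 with an own marker among the 10 leading genes. These thresholds and families were set after seeing the data.

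UMIs were summed over cells and scaled to CPM. Intervals are exact at 95%: Poisson for sums, Clopper-Pearson for shares, conditional binomial for ratios. The score is log2 of late over early genes, each per 10000 UMIs plus 1. A gene at 0 UMIs was set to a floor of 3. The functions were tested on simulated data. Named genes are the 9 members, the 2 most abundant of each fixed list in granulocyte-type cells, and the 10 genes most like the members (at least 50 CPM somewhere, log2 of CPM plus 10, groups of at least 10 cells, ribosomal, mitochondrial and haemoglobin genes left out). Other genes, such as Jchain, Itgam, Fcnb and Mmp8, were named after their values were seen. Alternatives are given at the end.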

Additional observations from a re-analysis of the deposited data

Results flagged for a closer look

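For 4 members the day 28 to day 0 ratio of CPM was at least 2-fold up in 1 group of cells and 2-fold down in another, with counting intervals on opposite sides of 1. S100a8 was 10.5 (7.07 to 16.3) in unnamed cluster 2 and 0.0704 (0.0601 to 0.0820) in erythroid-like cells. S100a9 was 9.63 in cluster 2 and 0.0596 in erythroid-like cells. Camp was 5.32 in Elane-high cells and 0.0362 in erythroid-like cells. Retnlg was 4.11 (1.77 to 9.09) in T or NK cell-like cells and 0.170 (0.124 to 0.229) in monocyte- or dendritic-like cells, but in both it passed the filter of 10 CPM on average only through the library where it was higher, so these values had to differ. The difference between groups was not tested, since each condition is 1 library. Without the top cell of each library, the lower ratios were 2.70, 2.95, 1.44 and 2.07. All 4 then lay above 1, but the interval of the Camp ratio (0.658 to 3.48) held 1.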

How the results depend on the processing

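No paired analysis was possible because each condition is 1 library, and no replicate could be left out. The 20 neutrophil-like cells were found as a cluster of the same 20 with members among the variable genes, at resolutions 0.4 and 1.2 and with no doublets removed. With at least 1000 detected genes, 10 of them were left out and 10 joined granulocyte progenitor-like cells, and with the libraries clustered separately the 5 of day 28 did. The causes of the moves below were not tested. S100a8 in Elane-high cells (3646 CPM at day 0) was 8579 CPM with at least 1000 genes, 1859 clustered separately, 2468 with no doublet removal, 3758 with members among the variable genes, 4290 as a mean over cells, 4326 thinned and 2772 without its top cell. At day 28 (3923 CPM) it was 5071, 5293, 3248, 4427, 4398 and 3563 under the same settings in that order, leaving out the variable genes, and 3998 at resolution 0.4. Member UMIs outside granulocyte-type cells (13.1% at day 0) were 12.0% clustered separately, 17.6% with at least 1000 genes, 19.9% with no doublet removal and 15.6% with cells assigned singly. At day 28 (12.4%) these were 14.9%, 13.1%, 15.04% and 10.6%, and the share was 12.0% with members among the variable genes, 11.1% at resolution 0.4 and 9.72% at 1.2. Leaving out cells with 3 or more UMIs of Elane, Mpo, Prtn3 and Ctsg gave 8.88% and 0.691%. Leaving out cells of 20 or more member UMIs, added after seeing the data, gave 4.05% and 6.53%. The thinned share of cells with S100a8, 6.84% and 23.6%, moved outside its interval only with at least 2 UMIs, to 0.406% and 2.17%. S100a9 per S100a8 in the lowest and highest range was 0.277 and 0.731 by the first principal component, and 0.127 and 0.670 within the Elane-high cluster. In Elane-high cells the count of members lower at day 28 went from 1 to 0 with no doublet removal, where the Ngp ratio was 1.19. Without the top cell of each library, S100a9 turned to 2.57 in monocyte- or dendritic-like cells, 2.95 in erythroid-like cells and 2.62 in lymphoid, plasmacytoid and erythroid cells pooled, and S100a8 to 2.70 in erythroid-like cells. Without cells of 20 or more member UMIs these were 3.91, 3.08, 2.66 and 2.70. The 5 day 28 neutrophil-like cells limit every level given for them.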
